A study of Arabidopsis thaliana with 9 samples.

Results

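The loci described here are 100 genes of Arabidopsis thaliana that carry only a locus number in the RefSeq gene table and whose transcript was lower with both of the cytokinins tested than in control leaves. Array probes are grouped into transcript clusters, 1 for each gene or transcript. A cluster was taken when it was paired with 1 gene whose RefSeq symbol is its locus number, when the mean log2 value with compound 3 and with compound 6 was each at least 1.5 below the control mean, when all 6 treated arrays lay below all 3 control arrays, and when the 2 compounds were under 1 apart. AT4G15690 and AT4G15700, glutaredoxin genes, were left out by choice. Of 38408 transcript clusters on the array 16722 were paired with 1 gene, 14800 of these had only a locus number, 116 of those met both differences, 113 also had separated arrays and 101 were also under 1 apart, AT4G15690 among them. AT4G15700 was not under 1 apart. The remaining 100 clusters stand for 100 different genes.

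The leaves came from Col-0 plants grown in soil for 21 days, were detached, and were kept in darkness in MS medium for 48 h. Control leaves had 0.05% DMSO, and treated leaves had 10 µM of compound 3 or 10 µM of compound 6, both known only by these code names. The labels give no DMSO content for treated leaves. Each group had 3 biological replicates of 10 to 15 leaves each, so 9 arrays in all. Control samples bear the numbers 7 to 9 in the labels and treated samples 16 to 21, and an effect of separate handling cannot be told apart from that of treatment. No leaves were measured before the dark period, so lower means lower than in control leaves after 48 h.

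Cytokinins are plant hormones that delay leaf senescence. A detached leaf kept in the dark runs short of sugar, loses chlorophyll and takes apart its chloroplasts, proteins and lipids, and much of that is driven by genes whose transcripts accumulate in the dark. Proteins are marked for breakdown by ubiquitin ligases, among which RING proteins are a numerous kind in plants. Proteases, lipases and enzymes of amino acid breakdown turn the products into substrates for respiration or export. The functions given for single loci are background from general knowledge of the Arabidopsis genome. The gene tables used here hold names for 3 of the loci (SINA2, DTX50 and LKR) and no descriptions, and 33 loci for which no function is given are named by locus alone.

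Since the values of all 9 arrays chose these loci, their differences from control and between the compounds are a description and carry no test. The 100 loci were lower by a median of 2.19 log2 units with compound 3 (range 1.55 to 3.80), which is 4.56-fold, and by a median of 1.88 with compound 6 (range 1.5 to 3.72), which is 3.68-fold. Over all 16722 clusters paired with 1 gene the median differences were 0.0097 and -0.023. With compound 3, 61 loci lay at least 2 below control and 15 at least 3 below, and with compound 6 the counts were 44 and 6. All 6 treated arrays lay below all 3 control arrays for 8.04% of the clusters paired with 1 gene, and for all 100 loci by the rule. The gap between the lowest control array and the highest treated array ran from 0.12 to 3.07 with a median of 1.25, and it was over 1 for 71 loci.

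**Figure D1:**
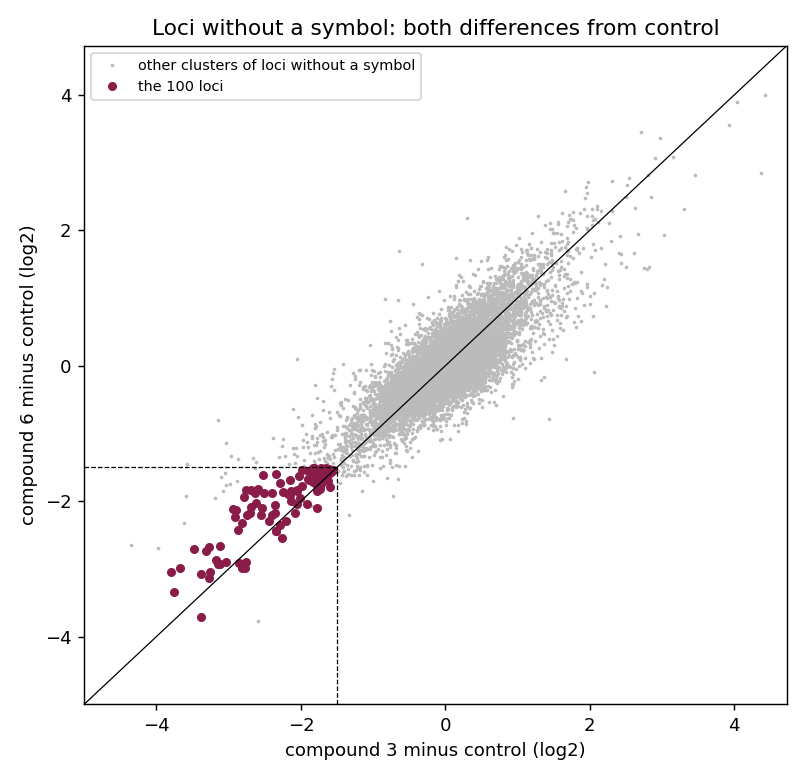
Difference from control in log2 units with compound 3 (horizontal) and compound 6 (vertical) for the 14800 clusters of loci without a symbol, with the 100 loci in dark red, the dashed threshold at -1.5 and a line of equal differences. Grey points inside the dashed corner failed another condition of the rule, and 80 of the 100 loci lie above the line, lower with compound 3 than with compound 6.

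Just inside the threshold lay AT5G22090 (-1.819 and -1.505), AT4G01410 (-1.829 and -1.504) and AT1G29380 (-1.653 and -1.503). Just outside it lay AT2G21185 (-1.840 and -1.497), AT1G26450 (-1.995 and -1.496) and AT5G39730 (-1.774 and -1.490), in each case compound 3 first and compound 6 second as log2 differences from control.

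In control leaves the loci were a mixture of dim and bright transcripts. Their control means ran from 4.01 to 11.4 with a median of 6.80, against a median of 3.64 for all clusters of loci without a symbol. With compound 3 the median level was 4.33 and with compound 6 it was 4.70. On the control arrays 96, 97 and 99 of the 100 loci stood above the array's median over clusters paired with 1 gene, and on the treated arrays 63 to 71 did. Group means under 4 were held by 0 loci in control leaves, 42 with compound 3 and 39 with compound 6. A value that low is near the dim end of the array, where a fold change can understate the change in transcript.

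The control arrays varied more over these loci than the treated arrays. The median SD over 3 arrays was 0.37 in control leaves, 0.26 with compound 3 and 0.24 with compound 6, against 0.26, 0.24 and 0.24 for all clusters of loci without a symbol. Control replicate 3 was the highest control array for 67 of the 100 loci, and control replicate 1 the lowest for 58. The rule requires high values on the control arrays, and 80 loci met it without control replicate 3, of which 74 are among the 100. Over all 9 ways to leave out 1 array, 61 loci always met the rule, among them all of the 15 and 29 of the 30 with the lowest mean of both differences.

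**Figure D2:**
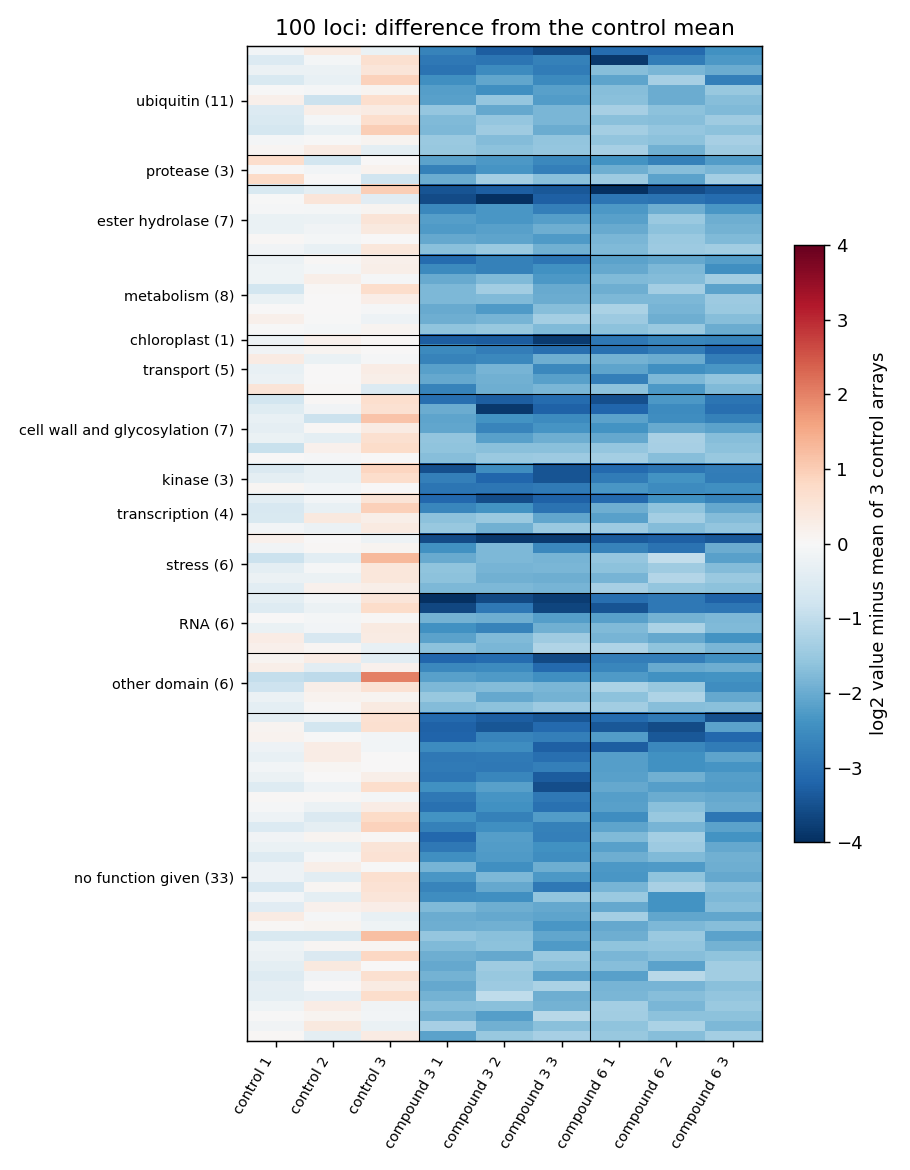
Log2 value minus the mean of the 3 control arrays for the 100 loci (rows, grouped by function with the number of loci) on the 9 arrays (columns), blue below and red above the control mean. Every locus is lower on all 6 treated arrays, by medians of 1.86 to 2.26 below the control mean over the loci, and the third control array is the highest of its group for 67 loci.

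The 2 compounds lay close together for these loci, as the rule demands, but not evenly. Of the 100 loci 80 were lower with compound 3 and 20 with compound 6, with a median of compound 6 minus compound 3 of 0.20 and a range of -0.34 to 0.92. For 25 loci all 3 compound 3 arrays lay below all 3 compound 6 arrays, for 0 the reverse was true, and for 75 the arrays of the compounds overlapped. Over all clusters paired with 1 gene the compound 3 arrays lay below the compound 6 arrays for 8.13% and above them for 7.84%, and since the rule used these values nothing is read from the counts of the loci. The locus furthest apart was AT1G60610, a RING protein of the S-ribonuclease-binding type, at 7.81, 7.80 and 8.53 in control leaves, 5.10, 5.52 and 5.25 with compound 3, and 6.36, 6.22 and 6.05 with compound 6. Compound 3 and compound 6 stood beside each other for AT1G57980, a member of the purine permease family, at 5.62 ± 0.24 in control leaves, 3.56 ± 0.12 with compound 3 and 3.57 ± 0.61 with compound 6 (log2 value, SD, n = 3).

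Among the loci with a known part in senescence, AT2G25625 was one of the 15 loci with the lowest mean of both differences. It encodes CV (chloroplast vesiculation), a protein that in senescing and stressed Arabidopsis leaves enters chloroplasts, destabilises photosystem II and leads to vesicles that carry chloroplast proteins to the vacuole. On the arrays CV stood at 8.20, 8.60 and 8.45 in control leaves, 5.12, 5.08 and 4.60 with compound 3, and 5.55, 5.82 and 5.74 with compound 6. The 3 groups did not overlap, with compound 3 lowest, and CV was 11.2-fold and 6.56-fold lower than in control leaves with compound 3 and compound 6. AT4G32250 encodes KOC1, a kinase of the outer chloroplast membrane that phosphorylates parts of the protein import machinery. KOC1 was among the brighter loci, at 9.35 ± 0.094 in control leaves, 6.47 ± 0.033 with compound 3 and 6.92 ± 0.087 with compound 6 (SD, n = 3).

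The ubiquitin group was the most numerous, with 11 loci, of which 8 encode RING-type proteins. SINA2 (AT3G13672), a relative of the SINA-type ubiquitin ligases that has been tied to drought responses, had the lowest mean of both differences in it, while ATL12 was lower with compound 6. Its values were 7.91, 8.37 and 7.75 in control leaves, 5.34, 4.71 and 4.45 with compound 3, and 4.93, 4.89 and 5.61 with compound 6. SINA2 was 9.07-fold and 7.3-fold lower with compound 3 and compound 6, and the arrays of the 2 compounds overlapped. ATL12 (AT2G20030) encodes a RING protein of the membrane-bound ATL family. ATL12 stood at 6.06, 6.51 and 7.24 in control leaves, 3.75, 3.69 and 3.90 with compound 3, and 2.75, 3.81 and 4.29 with compound 6, with every treated array below the lowest control array. AT2G47560 (ATL64), of the same family, was brighter, at 9.18 ± 0.81 in control leaves, 6.82 ± 0.24 with compound 3 and 7.12 ± 0.70 with compound 6 (SD, n = 3). AT5G10650, known as JUL1, encodes a RING ubiquitin ligase that acts on the jasmonate regulator JAV1. JUL1 stood at 7.98 ± 0.087 in control leaves, 5.70 ± 0.16 with compound 3 and 6.24 ± 0.25 with compound 6 (SD, n = 3). Over the 8 RING-type loci the differences ran from -2.82 to -1.57 with compound 3 and from -2.98 to -1.51 with compound 6. AT1G55760, which has the BTB/POZ domain found in adaptors of cullin ligases, differed from control by -1.99 with compound 3 and -1.78 with compound 6. The F-box gene AT5G55150 differed by -1.81 with compound 3 and -1.57 with compound 6.

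Ester hydrolases made up 7 loci, 4 of them GDSL esterases or lipases, a large plant family of enzymes that cleave acyl esters. AT1G28650, a GDSL gene, had the second lowest mean difference of the 100 loci, and its values were 5.08, 5.31 and 6.68 in control leaves, 2.24, 2.40 and 2.31 with compound 3, and 1.51, 2.13 and 2.29 with compound 6. The control arrays of AT1G28650 spread widely, yet each treated array lay far below them, and the locus was 10.4-fold and 13.1-fold lower. AT1G73610, another GDSL gene, stood at 7.15, 7.66 and 6.72 in control leaves, 3.6, 2.98 and 3.91 with compound 3, and 4.27, 4.22 and 4.08 with compound 6. AT1G28610 and AT1G28660 lie in the same run of GDSL genes as AT1G28650. AT1G28610 stood at 4.88 ± 0.092 in control leaves, 2.33 ± 0.20 with compound 3 and 2.68 ± 0.21 with compound 6 (SD, n = 3). AT1G28660 was far brighter than these, at 10.61 ± 0.057 in control leaves, 8.46 ± 0.11 with compound 3 and 8.92 ± 0.18 with compound 6 (SD, n = 3). AT1G73750, of the alpha/beta hydrolase fold, was the brightest of this group, at 11.29 ± 0.44 in control leaves, 9.05 ± 0.067 with compound 3 and 9.43 ± 0.34 with compound 6 (SD, n = 3), and AT1G34340, of the same fold, differed from control by -2.13 with compound 3 and -1.85 with compound 6. AT4G17483 encodes a palmitoyl protein thioesterase, which removes fatty acids from proteins, and differed by -1.70 with compound 3 and -1.53 with compound 6.

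The run of GDSL genes also held genes that the rule did not take. AT1G28650 and AT1G28660 were the only 2 of the 100 loci that are direct neighbours in the RefSeq order of protein-coding genes. Of the genes from AT1G28570 to AT1G28670, 7 others were measured. AT1G28570 fell with compound 3, with a log2 difference of -1.12 (SE 0.31, limma adjusted p = 0.029), and did not pass with compound 6 (-0.53, adjusted p = 0.38). Its call was kept in 5 of 9 fits without 1 array (adjusted p up to 0.126). AT1G28670, the lipase gene ARAB-1, fell with compound 3, with a log2 difference of -1.34 (SE 0.22, limma adjusted p = 0.00094) and did not pass with compound 6 (-0.27, adjusted p = 0.56). AT1G28580 and AT1G28600 had control means of 5.89 and 5.36 and passed with neither compound, and AT1G28590, AT1G28630 and AT1G28640 were dim, with control means of 1.35 to 1.97. These genes were looked up after the values were known. Paralogs this close can share probe sequence, and cross-hybridisation between them was not tested.

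Proteases were represented by 3 loci. AT2G45040, which encodes a matrix metalloproteinase anchored outside the cell, stood at 6.80, 5.38 and 6.13 in control leaves, 3.95, 3.82 and 3.53 with compound 3, and 3.73, 3.40 and 3.88 with compound 6. All 6 treated arrays of AT2G45040 lay below control, and those of the 2 compounds overlapped. AT2G39710, an aspartyl protease, stood at 7.69 ± 0.13 in control leaves, 5.09 ± 0.21 with compound 3 and 5.87 ± 0.12 with compound 6 (SD, n = 3). AT4G04460, known as PASPA3, is an aspartyl protease used as a marker of developmental cell death, and it was among the dimmer loci, at 4.13 ± 0.78 in control leaves, 2.46 ± 0.32 with compound 3 and 2.47 ± 0.43 with compound 6 (SD, n = 3).

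Of the 8 loci of metabolism, 3 act in the breakdown of amino acids or sucrose. LKR (AT4G33150), the bifunctional enzyme that starts lysine breakdown, was one of the brightest loci, at 11.21 ± 0.21 in control leaves, 9.49 ± 0.31 with compound 3 and 9.51 ± 0.26 with compound 6 (SD, n = 3). AT4G20930 encodes 3-hydroxyisobutyrate dehydrogenase of valine breakdown and stood at 8.42 ± 0.22 in control leaves, 5.87 ± 0.14 with compound 3 and 6.32 ± 0.33 with compound 6 (SD, n = 3). AT1G62660, a vacuolar invertase that splits sucrose, stood at 9.28 ± 0.21 in control leaves, 7.26 ± 0.27 with compound 3 and 7.66 ± 0.21 with compound 6 (SD, n = 3). The locus lowered most in this group was AT4G33420, a class III peroxidase and the brightest of all 100 in control leaves. Its values were 11.17, 11.46 and 11.62 in control leaves, 8.33, 8.71 and 8.53 with compound 3, and 9.28, 9.37 and 9.22 with compound 6, and the arrays of all 3 groups stood apart. AT3G04000, a short-chain dehydrogenase/reductase, differed from control by -1.85 with compound 3 and -1.68 with compound 6. AT4G29700, related to nucleotide pyrophosphatases, differed by -1.73 with compound 3 and -1.82 with compound 6. AT1G34060, of the alliinase family, and AT4G14930, a SurE-like nucleotidase, lay within the range of this group, -2.90 to -1.64 with compound 3 and -2.13 to -1.54 with compound 6.

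Transporters were 5 of the loci. DTX50 (AT5G52050), an efflux carrier of the MATE family that moves abscisic acid out of cells, was lowered most, and its values were 6.52, 6.77 and 6.66 in control leaves, 4.10, 3.90 and 3.63 with compound 3, and 3.68, 3.87 and 3.46 with compound 6. The treated arrays of DTX50 overlapped and lay 6.85-fold and 7.9-fold below control with compound 3 and compound 6. AT2G04050, known as DTX3, belongs to the same family and was dim in all groups, at 4.15 ± 0.30 in control leaves, 1.95 ± 0.36 with compound 3 and 1.85 ± 0.17 with compound 6 (SD, n = 3). AT1G69480, known as PHO1;H10, belongs to the PHO1 family named for a phosphate exporter and stood at 6.19 ± 0.29 in control leaves, 3.78 ± 0.39 with compound 3 and 3.98 ± 0.48 with compound 6 (SD, n = 3). AT1G57980, given above, belongs to the purine permeases, a family in which some members carry cytokinins. AT2G16660, of the major facilitator superfamily, differed from control by -2.15 with compound 3 and -1.91 with compound 6.

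Cell wall and glycosylation genes were 7 of the loci. AT1G62760, an inhibitor of pectin methylesterase or invertase, was lowered most in it and stood at 8.62, 9.41 and 10.04 in control leaves, 6.35, 6.05 and 6.28 with compound 3, and 5.83, 7.04 and 6.42 with compound 6. AT5G38940, a germin-like protein, stood at 5.26, 5.61 and 6.37 in control leaves, 3.75, 1.89 and 2.51 with compound 3, and 2.56, 3.24 and 2.74 with compound 6, with a wide spread with compound 3. AT1G53100, a glycosyltransferase of the core-2/I-branching type, stood at 4.94 ± 1.04 in control leaves, 2.60 ± 0.20 with compound 3 and 2.51 ± 0.29 with compound 6 (SD, n = 3). AT3G10320, known as MUCI21, makes side chains of seed mucilage and was bright in control leaves, at 9.14 ± 0.35 in control leaves, 6.79 ± 0.27 with compound 3 and 6.97 ± 0.19 with compound 6 (SD, n = 3). AT5G25820, of the exostosin family, differed from control by -1.91 with compound 3 and -1.68 with compound 6. AT2G44500, of the O-fucosyltransferase family, differed by -1.55 with compound 3 and -1.54 with compound 6. AT1G29380, with a carbohydrate-binding X8 domain, was the locus nearest to the threshold given above.

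**Figure D3:**
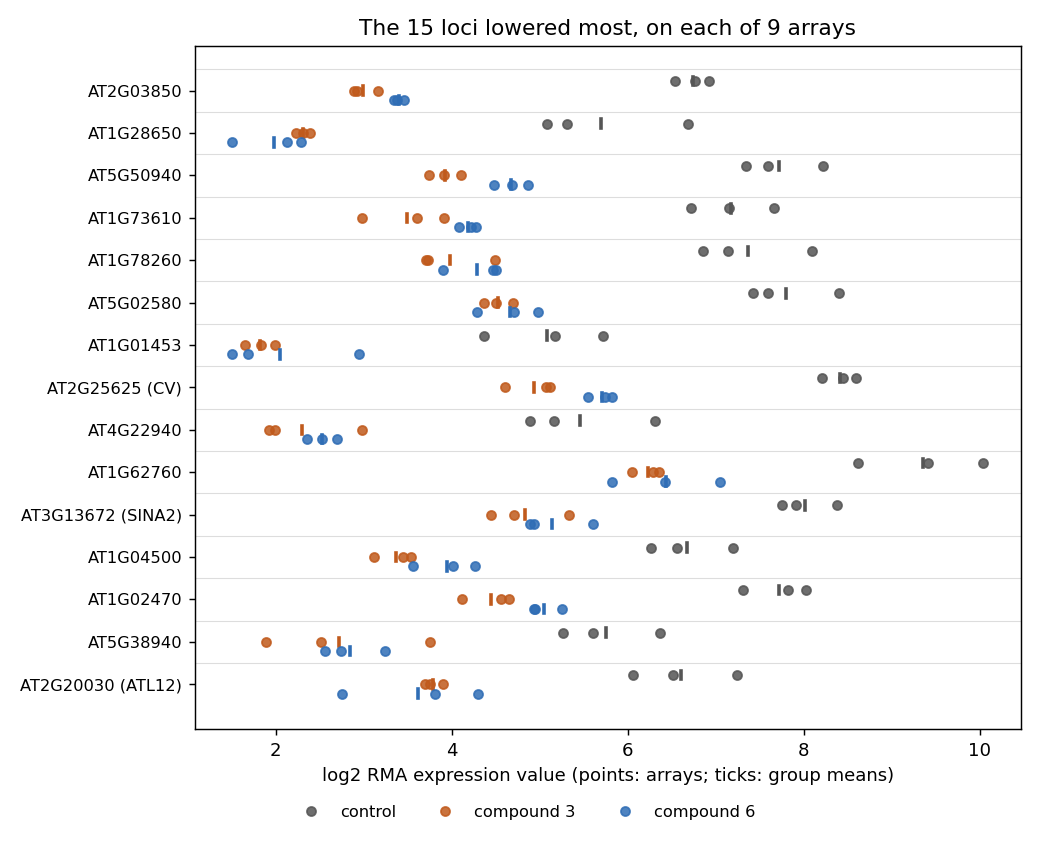
Log2 expression values on each array (points) and group means (ticks) for the 15 loci with the lowest mean of both differences, in that order from the top. In each locus the 3 control arrays (grey) lie to the right of all 6 treated arrays, with gaps of 1.42 to 3.07.

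Of 3 protein kinases, AT4G22940 was lowered most, at 4.89, 5.16 and 6.31 in control leaves, 1.93, 2.98 and 2.00 with compound 3, and 2.35, 2.52 and 2.70 with compound 6. AT4G31250, a leucine-rich repeat receptor kinase, stood at 8.34 ± 0.60 in control leaves, 5.21 ± 0.36 with compound 3 and 5.67 ± 0.23 with compound 6 (SD, n = 3). AT4G31250 is the 1 gene of the 100 with a second transcript cluster, which was not chosen by the rule and stood at 4.45 in control leaves, 4.07 with compound 3 and 4.30 with compound 6. The difference from control was -0.38 and -0.15 on that cluster, so the 2 clusters of the gene do not give the same picture.

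Transcription factors were 4 of the loci. AT1G04500 has the CCT motif shared with CONSTANS, a regulator of flowering, and stood at 6.26, 6.56 and 7.20 in control leaves, 3.54, 3.11 and 3.45 with compound 3, and 3.56, 4.26 and 4.01 with compound 6. AT1G77640, of the AP2/ERF family, stood at 6.90 ± 0.83 in control leaves, 4.26 ± 0.28 with compound 3 and 5.02 ± 0.23 with compound 6 (SD, n = 3). AT3G12910, with a NAC domain, the kind of factor that includes several regulators of senescence, differed from control by -1.74 with compound 3 and -1.77 with compound 6. AT3G50650, known as SCL7, of the GRAS family, differed by -1.64 with compound 3 and -1.59 with compound 6.

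Loci tied to stress and abscisic acid numbered 6. AT2G03850, of the late embryogenesis abundant proteins that accumulate in drying tissue, had the lowest mean of both differences of all 100 loci, although AT5G50940 was lower with compound 3 and AT1G28650 with compound 6. Its values were 6.92, 6.77 and 6.54 in control leaves, 3.16, 2.89 and 2.92 with compound 3, and 3.38, 3.46 and 3.35 with compound 6. The replicates of AT2G03850 were tight in each group, and the locus was 13.5-fold and 10.2-fold lower. AT1G08160 and AT4G01410, NHL-type relatives, are known from the same broad class. AT1G08160 differed from control by -1.90 with compound 3 and -1.56 with compound 6 and had the smallest gap between control and treated arrays, 0.12. AT4G01410 lay at the edge of the rule. AT2G24040, of the low temperature and salt responsive family, differed by -1.77 with compound 3 and -1.60 with compound 6. AT5G22090, known as EAR1, restrains abscisic acid signalling and lay at the edge of the rule. AT1G19200, of the FCS-like zinc finger family that binds the SnRK1 energy-sensing kinase, stood at 7.34 ± 0.13 in control leaves, 5.08 ± 0.41 with compound 3 and 4.80 ± 0.50 with compound 6 (SD, n = 3).

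RNA-binding and related loci were 6. AT5G50940, with a KH domain, had the lowest difference of all loci with compound 3, at 7.34, 7.60 and 8.21 in control leaves, 3.74, 4.10 and 3.91 with compound 3, and 4.69, 4.86 and 4.49 with compound 6. AT1G78260, with an RNA recognition motif, stood at 6.86, 7.14 and 8.09 in control leaves, 3.73, 4.49 and 3.71 with compound 3, and 3.90, 4.50 and 4.47 with compound 6. Both loci with pentatricopeptide repeats, proteins that bind organelle RNA, were lowered less. AT1G07590 differed from control by -2.02 with compound 3 and -1.95 with compound 6, and AT5G46460 by -1.77 with compound 3 and -2.09 with compound 6. AT1G59660, known as NUP98B, a nucleoporin, differed by -2.34 with compound 3 and -1.60 with compound 6. AT1G28260, known as SMG7L and related to a factor of nonsense-mediated RNA decay, differed by -1.56 with compound 3 and -1.56 with compound 6.

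The other 6 loci with a named domain were led by AT1G02470, with a START-like lipid-binding fold, at 7.82, 8.03 and 7.31 in control leaves, 4.56, 4.65 and 4.12 with compound 3, and 4.94, 4.94 and 5.25 with compound 6. AT3G25290, which joins a DOMON domain to a cytochrome b561 domain, stood at 6.17 ± 0.37 in control leaves, 3.43 ± 0.33 with compound 3 and 3.97 ± 0.36 with compound 6 (SD, n = 3). AT5G49200, with WD-40 repeats and a zinc finger, differed from control by -2.29 with compound 3 and -2.35 with compound 6. Its control arrays stood at 3.44, 3.34 and 6.42 (SD 1.75, n = 3). The size of both differences therefore rests in large part on control replicate 3, and AT5G49200 did not always meet the rule when single arrays were left out. AT4G23680, of the major latex protein family, differed by -1.79 with compound 3 and -1.75 with compound 6. AT5G27690 has a heavy-metal-associated domain and AT3G51720 belongs to the WEB family. They differed from control by -1.82 with compound 3 and -1.64 with compound 6, and by -1.60 with compound 3 and -1.59 with compound 6.

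The 33 loci with no function given here had differences of -3.28 to -1.59 with compound 3 and of -3.14 to -1.52 with compound 6. AT5G02580, lowered most among them, stood at 7.42, 7.59 and 8.40 in control leaves, 4.70, 4.50 and 4.37 with compound 3, and 4.71, 4.98 and 4.29 with compound 6. AT1G01453 stood at 5.18, 4.36 and 5.71 in control leaves, 1.84, 1.65 and 1.99 with compound 3, and 1.69, 1.51 and 2.94 with compound 6, where compound 6 replicate 3 was the highest treated array. AT5G66440 was among the brightest of the 100, at 11.10 ± 0.22 in control leaves, 8.15 ± 0.36 with compound 3 and 8.99 ± 0.15 with compound 6 (SD, n = 3). AT3G15440 differed from control by -2.86 with compound 3 and -2.92 with compound 6 and AT3G22961 by -2.76 with compound 3 and -2.89 with compound 6. AT3G14280 differed by -2.91 with compound 3 and -2.23 with compound 6 and AT1G72800 by -2.81 with compound 3 and -2.33 with compound 6. AT4G30670 differed by -2.71 with compound 3 and -2.17 with compound 6 and AT5G64190 by -2.70 with compound 3 and -2.09 with compound 6. Their control means ran from 5.85 for AT4G30670 to 9.06 for AT5G64190.

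**Figure D4:**
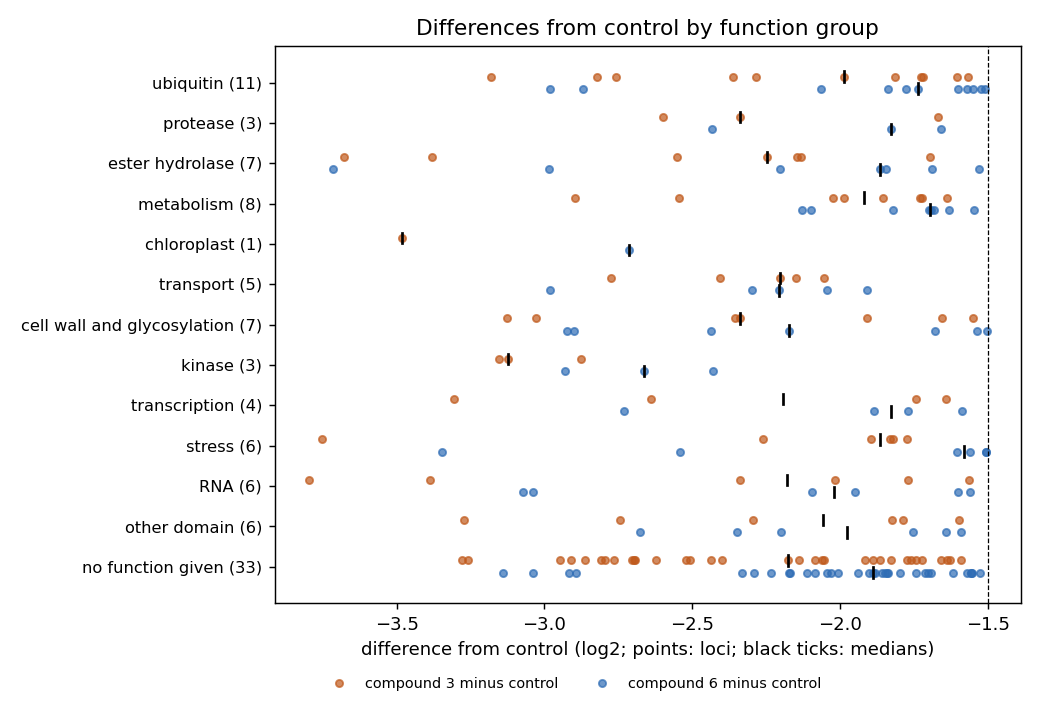
Log2 difference from control of each locus with compound 3 (orange) and compound 6 (blue), by function group with the number of loci, group medians as black ticks and the rule's threshold as a dashed line at -1.5. The medians lie between -3.48 and -1.86 with compound 3 and between -2.71 and -1.58 with compound 6.

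Genes of 10 lists on functions close to these were tested in the limma fit over 16722 clusters, leaving out the 100 loci. Of 158 listed genes 38 outside the 100 were measured by a cluster paired with 1 gene. The lists were drawn up with earlier results of these data known, so their counts are a description and not separate evidence. With compound 3, 10 of the 38 fell and 1 rose, where 6.11% of all clusters fell and 5.6% rose. With compound 6, 11 fell and 1 rose, where 4.72% of all clusters fell and 5.62% rose. Without compound 6 replicate 2, or without control replicate 2, 7 of the 38 fell with compound 6. With arrays centred on the median over all clusters, 11 and 15 of the 38 fell, where 1424 and 1569 of all 16722 clusters fell, against 1021 and 789 as deposited, so the share of clusters that fell with compound 6 depends on the scaling. Median differences of the 38 were -0.36 and -0.34.

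In the list of dark and sugar starvation genes 3 of 5 fell with each compound. EXO (AT4G08950), a cell wall protein, fell by 1.08 log2 units with compound 3 (SE 0.25, limma adjusted p = 0.0122) and by 1.55 with compound 6 (adjusted p = 0.00118). The compound 3 call of EXO ended without compound 3 replicate 1 or control replicate 2 (adjusted p up to 0.0677). MCCB and D2HGDH of amino acid breakdown, the pathway class of LKR, were the other 2, and D2HGDH kept its calls in 5 and 6 of 9 fits without 1 array (adjusted p up to 0.116). ETFQO (AT2G43400), which takes electrons from that breakdown, had differences of -0.44 and -0.53 and did not pass. Of 4 senescence genes 1 fell with compound 3 and 2 with compound 6. GAMMA-VPE (AT4G32940) fell with both, with log2 differences of -1.66 and -0.95 (limma adjusted p = 4.52e-05 and 0.00424). WRKY6 (AT1G62300) fell with compound 6, with a difference of -0.77 (limma adjusted p = 0.0142), and had -0.27 with compound 3. SAG29 (AT5G13170), a sugar transporter, was dim, with a control mean of 2.38, had differences of -0.53 and -0.72 and did not pass. SAG101 (AT5G14930) was higher with compound 3 by 0.43 and lower with compound 6 by 0.31, and did not pass either. Of 5 genes placed in the auxin response list 2 fell with compound 3 and 3 with compound 6. GH3.17 (AT1G28130) fell with both, with log2 differences of -3.84 and -3.53 (limma adjusted p = 1.36e-06 and 7.01e-06). WES1 (AT4G27260) did as well, with -2.71 and -2.71 (limma adjusted p = 1.15e-06 and 2.86e-06). The calls of GAMMA-VPE, WRKY6, GH3.17 and WES1, and those of COR47 given below, were not followed through the fits without 1 array. ARL (AT2G44080), which promotes cell expansion, fell by 1.09 with compound 6 (limma adjusted p = 0.00689) and had a difference of -0.11 with compound 3. Of 3 beta-oxidation genes AIM1 (AT4G29010) fell with compound 3, with a log2 difference of -0.80 (limma adjusted p = 0.011), and SDP1 (AT5G04040), a lipase of oil bodies, fell with compound 6, with a difference of -0.85 (adjusted p = 0.0194). The call of SDP1 was kept in 5 of 9 fits without 1 array (adjusted p up to 0.0816). Of 3 abscisic acid and dehydration genes 1 fell with each compound, COR47 (AT1G20440), a dehydrin, with log2 differences of -2.78 and -1.95 (limma adjusted p = 6.98e-07 and 2.49e-05), while COR15A and KIN1 were dim and did not pass. Of 3 detoxification genes DTX4 (AT2G04070), a close relative of DTX3, rose with compound 3 by 0.93 (SE 0.25, limma adjusted p = 0.0259) and had a difference of -0.32 with compound 6. Centring the arrays on all clusters ended the call of DTX4 (adjusted p = 0.0866), as did leaving out compound 3 replicate 1 or 2 or control replicate 2 or 3 (up to 0.124). Neither of 2 sulfur limitation genes passed in either comparison, and no gene of the KMD and nitrogen lists was measured.

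The FCS-like zinc finger family, with AT1G19200 among the 100 loci, had 13 other measured members. With compound 3, 2 of the 13 fell (15.4%, against 6.11% of all clusters). With compound 6, 1 fell (7.69%, against 4.72%) and 1 rose (5.62% of all clusters rose). Many of the 13 were dim, with control means of 1.37 to 3.29, so the counts say little about the family. AT5G20700 stood at 9.27, 9.34 and 9.41 in control leaves, 8.00, 7.79 and 7.59 with compound 3, and 8.91, 9.04 and 8.99 with compound 6. It fell with compound 3, with a log2 difference of -1.55 (SE 0.19, limma adjusted p = 8.65e-05), and had a difference of -0.36 with compound 6. AT1G74940 stood at 7.02, 6.68 and 7.13 in control leaves, 5.62, 5.75 and 5.68 with compound 3, and 6.91, 6.90 and 6.56 with compound 6. It fell with compound 3 as well, with a log2 difference of -1.26 (SE 0.20, limma adjusted p = 0.00077), and had a difference of -0.15 with compound 6. For both, the compound 3 arrays lay below all arrays of the other groups. Between the compounds 0.299% of all clusters were called, and the difference was called for both, at 1.18 for AT5G20700 (limma adjusted p = 0.0136) and 1.11 for AT1G74940 (adjusted p = 0.0275). These 2 calls were kept in 4 and 3 of 9 fits without 1 array, the highest adjusted p being 0.0772 and 0.129, each ended without any 1 of the compound 6 arrays, and that of AT1G74940 ended when arrays were centred on all clusters (adjusted p = 0.0648). AT1G79970 fell with compound 6 by 0.65 (limma adjusted p = 0.042) and had a difference of -0.61 with compound 3 (adjusted p = 0.051). AT3G22550 rose with compound 6 by 0.76 (limma adjusted p = 0.041). These calls were kept in 1 and 2 of 9 fits without 1 array (adjusted p up to 0.138 and 0.173), and the call of AT3G22550 ended when arrays were centred on all clusters (0.131).

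**Figure D5:**
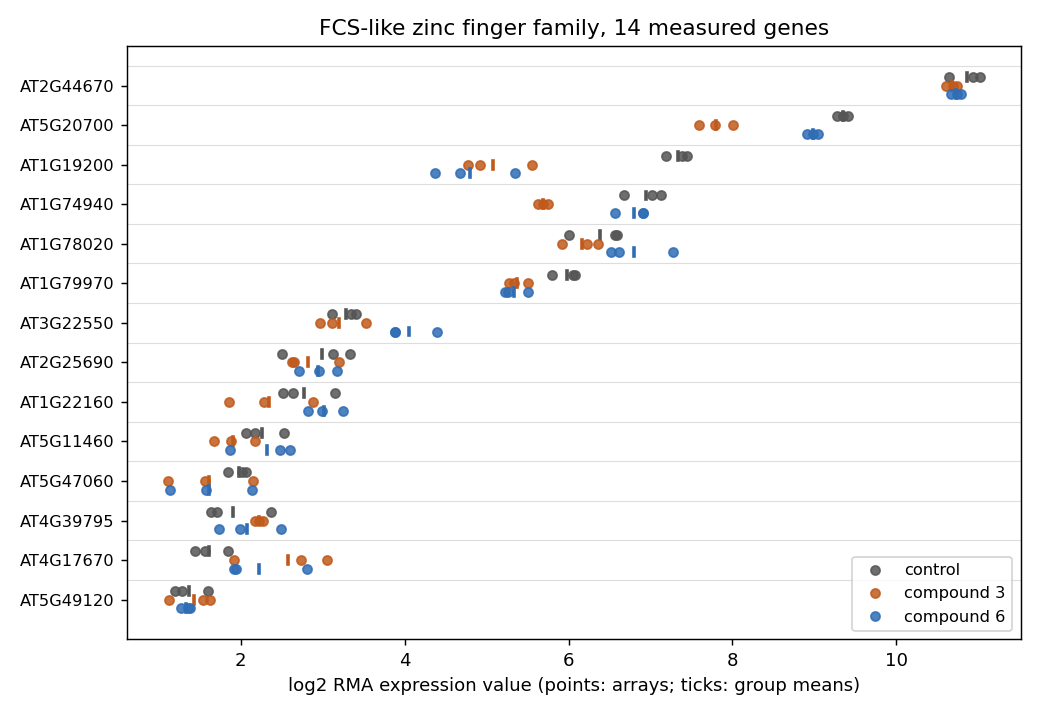
Log2 expression values on each array (points) and group means (ticks) for the 14 measured genes of the FCS-like zinc finger family, ordered by control mean. AT1G19200 is low with both compounds, and AT5G20700 and AT1G74940 are low with compound 3 and near control with compound 6.

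The direct neighbours of the 100 loci in the RefSeq gene order, none of them chosen by its values, were described in the same fit. Of 124 measured neighbouring clusters 13 fell and 5 rose with compound 3, with 10.5% falling against 6.11% of all clusters. With compound 6, 11 fell and 5 rose, with 8.87% falling against 4.72%. When arrays were centred on the median over all clusters, 16 and 24 of the 124 fell (12.9% and 19.4%), against 8.52% and 9.38% of all clusters. Median differences of the neighbours were -0.061 and -0.089 as deposited. The neighbour with the lowest mean difference was AT1G02660, beside AT1G02670, with -1.15 with compound 3 (SE 0.26, limma adjusted p = 0.0104) and -1.86 with compound 6 (adjusted p = 0.00042). Its compound 3 call ended without compound 3 replicate 1 (adjusted p = 0.0587). AT1G73740 and AT1G73760, on either side of AT1G73750, both fell with both compounds, by 1.14 and 1.15 with compound 3 and by 1.20 and 0.76 with compound 6 (limma adjusted p from 0.00137 to 0.0229). The compound 6 call of AT1G73760 was kept in 5 of 9 fits without 1 array (adjusted p up to 0.0958). AT1G53110, beside AT1G53100, fell by 1.21 with each compound (limma adjusted p = 0.00096 and 0.0011). UGT85A4 (AT1G78270), a glycosyltransferase gene beside AT1G78260, fell by 1.57 and 1.17 (limma adjusted p = 0.00021 and 0.0022), while a second cluster of AT1G78270 had differences of -0.091 and -0.19 and did not pass. Other neighbours rose with both compounds. AT4G30680, beside AT4G30670, rose by 1.496 with compound 3 and 1.465 with compound 6 (limma adjusted p = 0.000206 and 0.000304). AT5G55140, beside AT5G55150, rose by 1.42 and 1.07 (limma adjusted p = 0.00391 and 0.025), and AT1G63850, beside AT1G63840, by 0.89 and 1.32 (0.0374 and 0.00413). The calls of these rises were not followed through the fits without 1 array. All neighbours named here were picked out after their values were seen, and overlap of transcripts between neighbours was not tested.

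Markers of leaf cell types were few among the clusters paired with 1 gene. Both measured mesophyll markers of 10 listed rose with both compounds, RCA and LHCB4.2 (the calls of LHCB4.2 were kept in 1 and 5 of 9 fits without 1 array and ended when arrays were centred on all clusters, adjusted p = 0.128 and 0.0795), with array means of the 2 between 9.16 and 9.33 in control leaves and between 9.99 and 10.4 in treated leaves. Of 8 guard cell markers 2 were measured and of 8 vascular markers 1, and none of these passed in either comparison. The 2 guard cell markers had array means of 6.89 to 7.45 in control leaves and 6.67 to 7.47 in treated leaves. None of 7 epidermis markers was measured. In whole leaves, fewer cells of a type and less RNA per cell cannot be told apart, and the part of cell type shares in the differences was not tested.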

How the data were processed

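Each of 9 Affymetrix arrays was hybridised with biotin-labelled cDNA from total RNA of 1 sample. The authors deposited 1 log2 value for each transcript cluster and array, made with RMA in the R package oligo, per the submitters' processing notes, which also name limma. Versions and build were not given in the sources used here. The log base is not stated, and log2 was taken from the range of 0.132 to 13.9. RMA brings all arrays to 1 distribution of probe values, so a shift shared by most transcripts is removed at the level of probes. Array medians over all clusters still ran from 3.71 to 3.83 in control leaves and from 3.87 to 4.15 in treated leaves. Over clusters paired with 1 gene they ran from 3.70 to 3.76 and from 3.71 to 3.81. Precision is limited by the number of arrays.

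Gene names came from the platform's table, updated through RefSeq assembly TAIR10.1, which held 16574 of the 16722 clusters paired with 1 gene. A linear model over all 9 arrays was fitted with limma 3.58.1 in R 4.3.3 (6 residual and 7.89 prior degrees of freedom, two-sided, Benjamini-Hochberg adjusted p under 0.05 over 16722 clusters). Tested on simulated data, it recovered 46% and 96% of clusters changed by 1 and 2 log2 units in the compound 3 comparison and 41% and 95% in that of compound 6. The simulation changed 100 clusters at each size, far fewer than were called in the data, and assigned spreads to clusters without regard to their level. Its shares may therefore differ from those in the data. Same-numbered samples of different groups had deviations correlated at -0.375 to 0.261. From 3 arrays per group these values cannot settle whether the numbers pair the samples, and the main model used no pairing. Figures were drawn with matplotlib 3.10.9.

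The loci and lists were chosen with earlier results of these data known. Named were the 30 loci with the lowest mean difference (the first 15 on every array), up to 5 more per function group, 3 loci on each side of the threshold, and up to 4 called genes per list. Some listed genes that did not pass were named beside them. Function groups were formed after the loci were known. Alternatives were other scalings, a filter on dim clusters, single arrays left out, a replicate block, all clusters tested, an intensity trend and other limits of the rule.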

Additional observations from a re-analysis of the deposited data

Results flagged for a closer look

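Of the listed genes outside the 100 loci, 2 genes of the FCS-like zinc finger family passed the test of the difference between the compounds. AT5G20700 was higher with compound 6 than with compound 3 by 1.18 log2 units (limma adjusted p = 0.0136), and AT1G74940 by 1.11 (adjusted p = 0.0275). In both the 3 compound 3 arrays lay below the 3 compound 6 arrays. These calls were kept in 4 and 3 of 9 fits without 1 array (adjusted p up to 0.0772 and 0.129), and both ended with the replicate number as a block (0.0545 and 0.0822) and when all transcript clusters were tested (0.0846 and 0.107).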

How the results depend on the processing

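All 100 loci met the rule when arrays were centred on the median over all clusters, which gave 156 loci in all, and when quantile normalization was applied again. That centring moved the median difference of all clusters paired with 1 gene from 0.0097 to -0.15 with compound 3 and from -0.023 to -0.27 with compound 6, the loci's median difference with compound 6 to -2.12, and the calls to 1424 of 2015 lower with compound 3 and 1569 of 2120 lower with compound 6, against 1021 of 1957 and 789 of 1728. Quantile normalization gave 1278 of 2078 and 1147 of 1878 lower. The limit of the rule sets the number of loci, 188 at -1.2 and 42 at -2. Leaving out 1 array gave 80 to 125 loci, median differences of -2.33 to -2.06 with compound 3 and -2.01 to -1.74 with compound 6, 1319 to 1919 calls with compound 3 and 1227 to 1668 with compound 6, and 8 to 11 listed genes that fell with compound 3 and 7 to 11 with compound 6. Testing all transcript clusters raised the calls to 3360 and 3144, where more clusters were tested. It ended 8 calls of the named genes that were followed through these fits (adjusted p from 0.0566 to 0.107). These were the calls of AT1G28570, D2HGDH, DTX4 and LHCB4.2 with compound 3. The others were those of AT1G79970 and AT3G22550 with compound 6, and of AT5G20700 and AT1G74940 between the compounds. With the replicate number as a block 1648 and 1453 clusters were called, 10 listed genes fell with each compound, and the differences between compounds of AT5G20700 and AT1G74940 (adjusted p = 0.0545 and 0.0822) and the compound 6 calls of AT1G79970 and AT3G22550 (0.085 and 0.0773) and the compound 3 call of LHCB4.2 (0.0747) were lost. The cause of these shifts was not tested. Signal over background was not measured, which limits statements on loci with values under 4.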
